A study of Mus musculus with 11 samples.

Results

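Collagens, fibronectin and the receptors by which fibroblasts sense matrix and growth factors were followed in the skin of 11 transplanted mice. The set held 14 of the 754 genes on the panel. It was made of Col1a2, Col3a1, Col11a1, Fn1, Pdgfra, Pdgfrb and Ddr2, which were named, and of every other gene whose symbol has the form of a collagen chain, which added Col4a1, Col4a2, Col10a1, Col12a1, Col14a1, Col15a1 and Col17a1. Col1a1, which encodes the partner chain of Col1a2, was not analysed here.

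All mice were female recipients 8 to 10 weeks old that received 850 cGy of radiation followed by 5000000 bone marrow cells and 2000000 splenocytes, so no group was untreated skin. The 3 syngeneic and 3 allo-WT mice were C57BL/6J recipients, and the 5 allo-MCd mice were B6.Cg-KitW-sh/HNihrJaeBsmGlliJ recipients. W-sh alters Kit, which encodes the stem cell factor receptor that mast cells need, and such mice lack mast cells. It is carried in every cell of the recipient and is not restricted to mast cells. Allogeneic donors were LP/J. Donors of the syngeneic group were C57BL/6J in the methods of the study but LP/J in the labels, and the groups are named here by their labelled transplant type. Skin from the nape of the neck was taken at week 7, the time at which chronic graft-versus-host disease of the skin was studied, and 100 ng of RNA per mouse was counted with the NanoString Myeloid Innate Immunity panel. The question put to these genes was whether transcripts of the fibrous matrix and of its fibroblast receptors differed between the groups.

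Fibroblasts of the dermis secrete fibrillar collagens, which assemble into the fibers that give skin its strength, and fibronectin, an adhesive glycoprotein on which collagen fibers are laid down. Other collagens decorate those fibers or build the basement membranes beneath epithelium and around vessels and muscle fibers. Platelet-derived growth factor receptors drive the growth of fibroblasts and pericytes, and discoidin domain receptors are kinases that bind collagen directly. In sclerotic skin disease this matrix accumulates, and transcripts do not measure the protein already laid down.

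Promoters are shown for Col1a2 and Col3a1, the fibrillar chains whose values are set against each other below, and for Col4a1 and Col4a2, neighbors that are read in opposite directions. Each window runs 5′ to 3′ on the strand of the gene, from 250 bases before the annotated start to the 50 bases from the start on (RefSeq, GRCm38.p6). Capitals mark every match, on either strand, to TATAAA (the TATA box), to CCAAT (the CCAAT box), to GGGCGG (the Sp1 box), to CAGAC (read by Smad factors) or to TGAGTCA (the AP-1 site). The windows are chr6:4505368-4505667 on the plus strand for Col1a2, chr1:45311288-45311587 on the plus strand for Col3a1, chr8:11312777-11313076 on the minus strand for Col4a1 and chr8:11312555-11312854 on the plus strand for Col4a2.
Col1a2: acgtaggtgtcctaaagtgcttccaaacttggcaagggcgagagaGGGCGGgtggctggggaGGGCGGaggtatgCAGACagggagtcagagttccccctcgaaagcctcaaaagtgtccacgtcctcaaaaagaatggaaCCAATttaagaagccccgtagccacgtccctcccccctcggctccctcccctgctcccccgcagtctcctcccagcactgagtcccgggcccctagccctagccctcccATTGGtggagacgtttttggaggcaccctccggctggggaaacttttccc
Col3a1: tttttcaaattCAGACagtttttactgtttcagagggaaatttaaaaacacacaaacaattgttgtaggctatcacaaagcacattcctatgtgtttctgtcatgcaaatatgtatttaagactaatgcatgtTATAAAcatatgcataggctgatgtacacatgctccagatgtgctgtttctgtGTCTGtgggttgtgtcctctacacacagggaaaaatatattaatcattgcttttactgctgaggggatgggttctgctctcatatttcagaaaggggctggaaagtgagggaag
Col4a1: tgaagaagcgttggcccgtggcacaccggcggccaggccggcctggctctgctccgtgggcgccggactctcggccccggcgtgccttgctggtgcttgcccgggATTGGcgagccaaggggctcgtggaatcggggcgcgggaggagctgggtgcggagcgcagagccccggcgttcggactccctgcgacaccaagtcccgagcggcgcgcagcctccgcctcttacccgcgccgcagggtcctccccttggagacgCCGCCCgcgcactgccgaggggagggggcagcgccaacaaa
Col4a2: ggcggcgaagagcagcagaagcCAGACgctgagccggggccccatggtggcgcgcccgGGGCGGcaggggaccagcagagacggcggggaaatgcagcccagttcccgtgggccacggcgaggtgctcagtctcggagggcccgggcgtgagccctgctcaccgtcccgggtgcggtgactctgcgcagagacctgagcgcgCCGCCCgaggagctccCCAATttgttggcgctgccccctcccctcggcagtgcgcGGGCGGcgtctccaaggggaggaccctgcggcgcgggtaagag

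A promoter was found for 10 of the 14 genes, and none was used for Fn1, Col12a1, Col14a1 or Pdgfrb. The starts of Col4a1 and Col4a2 lie 21 bases apart and their windows share 78 bases, with a GC content of 74% and 73.7%. The window of Col1a2 held 2 matches to CCAAT, 2 to GGGCGG and 1 to CAGAC, and that of Col3a1 held 1 match to TATAAA and 2 to CAGAC, with a GC content of 61% and 37.7%. Among the 10 promoters TATAAA was present in 4, CCAAT in 5, GGGCGG in 4, CAGAC in 6 and TGAGTCA in 0, where the shares of all 32851 promoters were 13.6%, 37.4%, 35.7%, 49.6% and 5.2%. These matches describe the letters of the windows and say nothing of binding.

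Values are normalized counts, which the authors scaled in nSolver. Of the 14 genes, 13 reached 20 in 3 or more mice and were tested among 696 genes, and Col10a1, a collagen of cartilage, was not. Its values lay between 2.54 and 21.7 and were above background in 1 of 11 mice. The recovered total was between 831632 and 1460260 counts per mouse. It was lowest in allo-WT mouse 1, whose strongest positive control probe was read 3975 times, where the other mice had 17615 to 33547 reads of it. Its counts had been multiplied by the largest factor of all mice, 2.54, against 0.759 to 1.5 in the others.

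The scaling also sets the center of each comparison. On the deposited scale the median log2 difference of all tested genes was 0.21 for allo-WT minus syngeneic, -0.72 for allo-MCd minus allo-WT and -0.59 for allo-MCd minus syngeneic mice. When each mouse was divided by its own median gene, called median scaling here, these became -0.04, 0.12 and -0.01. Calls of the 13 tested genes that part between these scales are given on both. Values are listed below in the order of mouse 1 to 3 in the syngeneic and allo-WT groups and 1 to 5 in the allo-MCd group.

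In allo-WT skin, 5 of the 13 tested genes differed from syngeneic skin in limma at an adjusted p of at most 0.05. Col12a1 rose and Col15a1, Col1a2, Col4a2 and Ddr2 fell. Of all 696 genes 43.2% were called, 28.3% higher and 14.9% lower. The median log2 difference of the 13 genes was -1.04. In 4 of them the groups did not overlap, Col12a1 upward and Col15a1, Col1a2 and Ddr2 downward, against 53.9% of all genes (33.6% upward and 20.3% downward). Under median scaling 8 were called, 1 higher and 7 lower, where 51.6% of all genes were called (24.3% higher and 27.3% lower), and under quantile normalization 10 were called (53.2% of all genes). Without allo-WT mouse 1 the call was made for 3 genes (34.5% of all genes), and without allo-WT mouse 2 for 2 (36.4% of all genes). It was made for 2 without syngeneic mouse 1 (33.5% of all genes) or syngeneic mouse 3 (32.2%), and for 8 without allo-WT mouse 3 (47% of all genes).

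In allo-MCd skin, 4 of the 13 genes differed from allo-WT skin. Col11a1, Col15a1 and Col4a2 rose and Pdgfra fell. Of all genes 60.9% were called, 10.9% higher and 50% lower, and the median log2 difference of the 13 genes was 0.02. The groups did not overlap for the 3 genes that rose, where 10.1% of all genes had all allo-MCd mice above all allo-WT mice and 46% all below, 56% in all. Under median scaling 5 were called, all higher and none lower, where 65.9% of all genes were called (35.6% higher and 30.3% lower), and under quantile normalization 6 (66.1% of all genes). Without allo-WT mouse 1 the number called was 2 (50.4% of all genes) and without allo-WT mouse 2 it was 4 (56.8% of all genes).

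Against syngeneic skin, 7 of the 13 genes differed in allo-MCd skin. Col11a1 and Col12a1 rose, and Col15a1, Col1a2, Ddr2, Pdgfra and Pdgfrb fell. Of all genes 41.5% were called, 4.6% higher and 36.9% lower, and the median log2 difference of the 13 genes was -0.95. The groups did not overlap for 2 genes upward (Col11a1 and Col12a1) and 4 downward (Col1a2, Ddr2, Fn1 and Pdgfra), against 6.9% and 37.4% of all genes, 44.3% in all. Under median scaling 3 were called, Col11a1 and Col12a1 higher and Ddr2 lower, where 27.4% of all genes were called (13.9% higher and 13.5% lower), and under quantile normalization 4 (27.7% of all genes). Without syngeneic mouse 1 (27.3% of all genes) or syngeneic mouse 3 (28%) the number was 3, without allo-MCd mouse 1 (31.9%) or allo-MCd mouse 4 (32.2%) it was 4, and without allo-WT mouse 2, which only lends its spread to this comparison, it was 9 (42.5% of all genes). Without allo-WT mouse 1 it was 6 (42% of all genes). The methods' test, a 3-group test with Tukey's comparison on the unlogged values, kept 1 call in each of the 3 comparisons after Benjamini-Hochberg adjustment, that of Col15a1 (27.7% of all genes), Col11a1 (43.4%) and Pdgfra (11.4%) in the order used here.

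**Figure D1:**
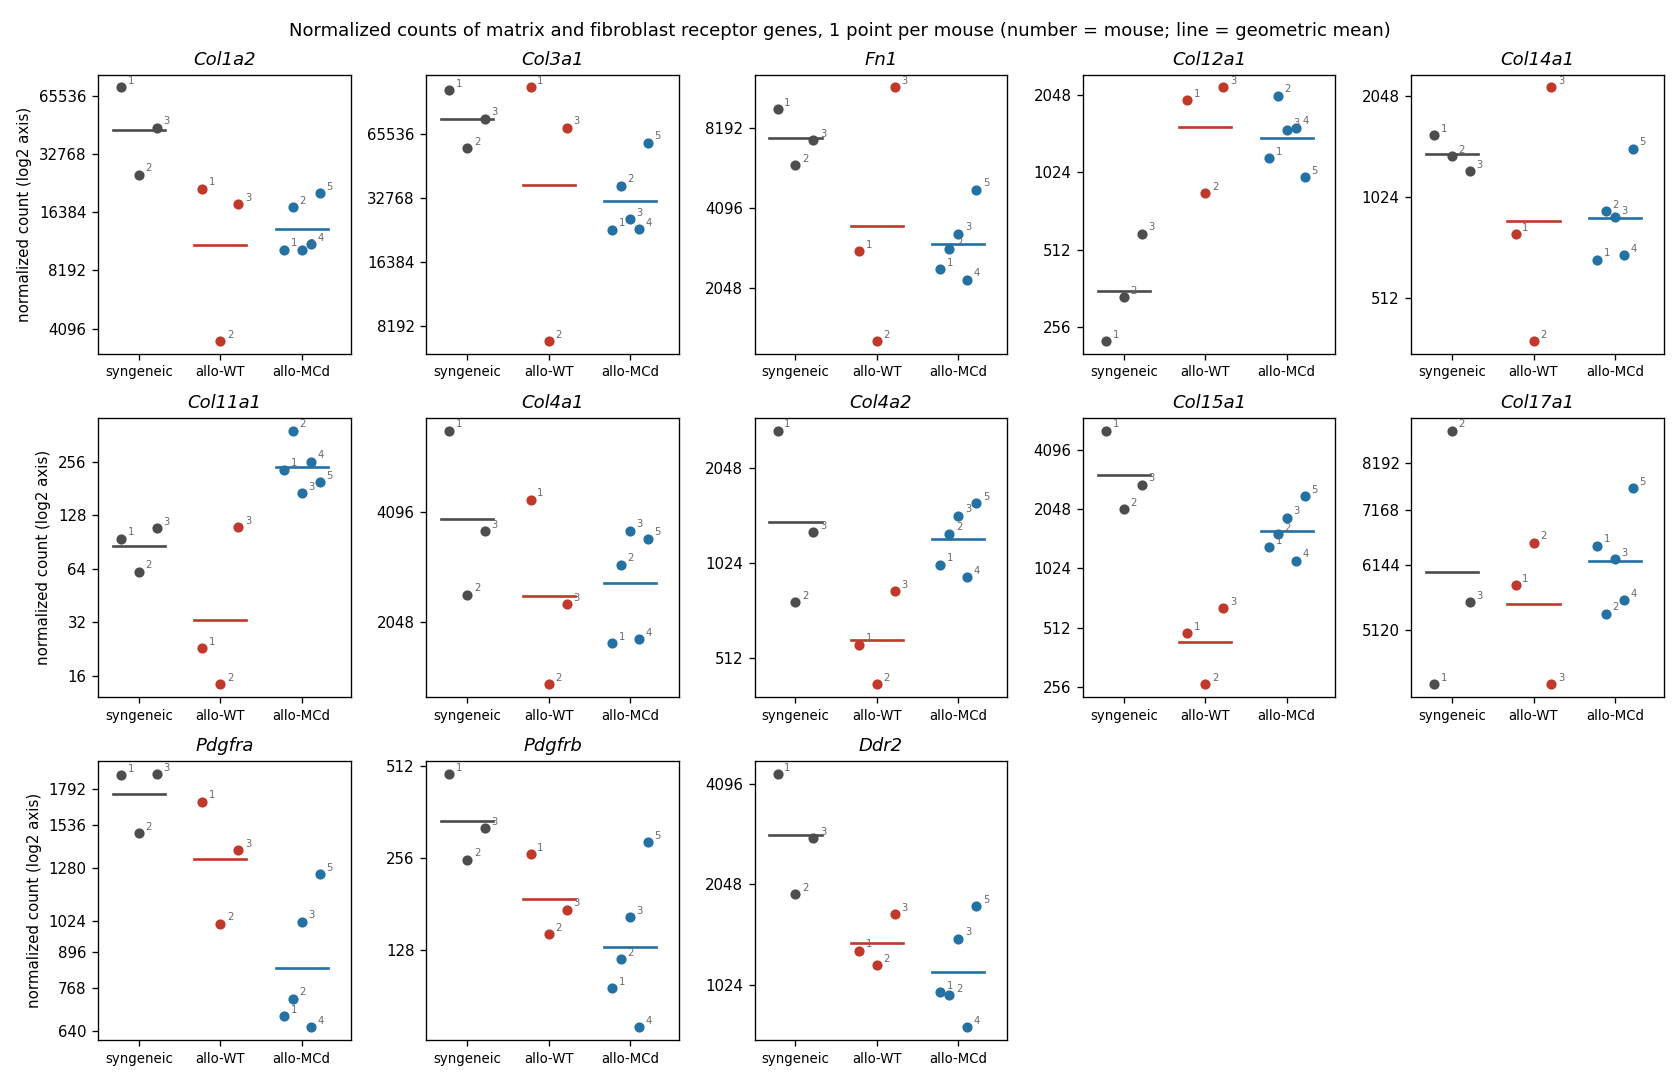
Normalized counts (log2 axis, with its own range in each panel) of the 13 tested genes, with 1 point per mouse, the mouse number beside it and a line at the geometric mean of each group. Col12a1 and Col15a1 separate the allo-WT from the syngeneic mice, Col11a1 lies highest in the 5 allo-MCd mice, and allo-WT mouse 2 is the lowest of its group in 12 of the 13 genes.

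Col1a2 encodes the alpha 2 chain of type I collagen, the main collagen of the dermis. Its normalized counts were 72324, 25660 and 44839 in the syngeneic mice, 21723, 3535 and 17971 in the allo-WT mice, and 10479, 17382, 10409, 11202 and 20504 in allo-MCd mice. Every syngeneic mouse was above every mouse of both allogeneic groups. The level was 3.92-fold lower in allo-WT relative to syngeneic skin (log2 difference -1.97 ± 0.61 SE, adjusted p = 0.0212) and 3.25-fold lower in allo-MCd skin (-1.70 ± 0.55, adjusted p = 0.0275). The first call was lost without syngeneic mouse 1, syngeneic mouse 3 or allo-WT mouse 2, where the adjusted p reached 0.085. The second was lost under median scaling (-1.11, adjusted p = 0.115) and in the fits that left out syngeneic mouse 1, syngeneic mouse 3, allo-MCd mouse 1 or allo-MCd mouse 4 (adjusted p of up to 0.13). Between the allogeneic groups the log2 difference was 0.27 (95% interval -0.92 to 1.46), and the groups overlapped. It was 1.11 under median scaling (adjusted p = 0.0673) and 1.27 under quantile normalization, where it was called (adjusted p = 0.0412).

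Col3a1 encodes type III collagen, which co-assembles with type I in thin fibers and is abundant in early scar. It was at 105403, 56486 and 77562 in the syngeneic mice, at 108865, 6974 and 70361 in the allo-WT mice, and at 23323, 37623, 26194, 23485 and 59900 in allo-MCd mice. The allo-WT mice spanned 15.6-fold, with mice 1 and 3 inside or just above the syngeneic range and mouse 2 below every other mouse. No comparison was called, at log2 differences of -1.04 (interval -2.79 to 0.72, adjusted p = 0.298) for allo-WT minus syngeneic, -0.25 (-1.82 to 1.32, adjusted p = 0.777) for allo-MCd minus allo-WT and -1.28 (-2.85 to 0.29, adjusted p = 0.162) for allo-MCd minus syngeneic mice. The comparisons with allo-WT mice rested on mouse 2, since without it the first difference became 0.18 (adjusted p = 0.778) and the second -1.46 (adjusted p = 0.0122). The third difference does not contain that mouse and stayed at -1.28, but it was called in the fit without it (adjusted p = 0.0176) and in the fit without the allo-WT group (adjusted p = 0.0139), which alter its error and not its value. Under median scaling the second difference turned to 0.60 (adjusted p = 0.448).

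Col11a1 encodes a chain of type XI collagen, a minor fibrillar collagen best known from cartilage, where it nucleates thin fibers. The counts were 94.3, 61.7 and 108 in the syngeneic, 22.8, 14.3 and 110 in the allo-WT, and 231, 382, 170, 256 and 196 in allo-MCd mice. All 5 allo-MCd mice were above all 6 other mice, and in the allo-WT group the gene was above background in 1 of 3 mice. It was 6.94-fold higher in allo-MCd relative to allo-WT skin (log2 difference 2.80 ± 0.53, adjusted p = 0.000727) and remained called in all 11 fits that each left out a mouse. Against the allo-WT values at background that fold is a rough one. Against syngeneic skin it was 2.75-fold higher (1.46 ± 0.53, adjusted p = 0.0452), and this call was lost in 6 of the 11 fits, without any one of the syngeneic mice or of allo-MCd mice 1, 2 and 4 (adjusted p of up to 0.14). The allo-WT minus syngeneic difference of -1.34 had an adjusted p of 0.0849, and under median scaling it was called at -1.57 (adjusted p = 0.047). It was also called without allo-WT mouse 3, but neither remaining allo-WT mouse was above background and no size is given. Without allo-WT mouse 2 it was -0.75 (adjusted p = 0.302).

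Col12a1 encodes type XII collagen, which bridges collagen fibers and is known from tissues under tension and from healing wounds. Counts of 226, 334 and 591 in syngeneic mice stood against 1947, 849 and 2182 in the allo-WT mice and 1159, 2029, 1495, 1525 and 976 in allo-MCd mice. All 8 allogeneic mice were above all 3 syngeneic mice. The rise was 4.31-fold in allo-WT (log2 difference 2.11 ± 0.41, adjusted p = 0.00207) and 3.92-fold in allo-MCd skin (1.97 ± 0.37, adjusted p = 0.00208), and both calls held under median scaling (1.86 and 2.56) and in all 11 fits without a mouse. Both were lost by the methods' test after Benjamini-Hochberg adjustment (adjusted p = 0.0726 and 0.132). The allogeneic groups differed by -0.14, with an interval from -0.95 to 0.67 (adjusted p = 0.755), and by 0.70 under median scaling (adjusted p = 0.115). It was the only one of the 13 genes called higher in allo-WT relative to syngeneic skin.

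Col14a1, which encodes a related fiber-associated collagen, was at 1562, 1352 and 1223 in the syngeneic mice, 791, 380 and 2170 in the allo-WT mice and 665, 926, 889, 685 and 1424 in allo-MCd mice. The syngeneic mice were close together, and the allo-WT mice lay on both sides of them. No comparison was called, and the log2 difference was -0.66 for allo-WT and -0.64 for allo-MCd minus syngeneic mice (adjusted p = 0.279 and 0.25). Without allo-WT mouse 3, the first was called at an adjusted p of 0.011.

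Col15a1 encodes type XV collagen, found at the basement membrane zone of vessels, muscle fibers and nerves. It showed the largest fall among the 13 genes in allo-WT skin. The counts were 5143, 2048 and 2730 in the syngeneic, 479, 264 and 644 in the allo-WT, and 1316, 1536, 1854, 1123 and 2379 in allo-MCd mice. All allo-WT mice were below all other mice. The level was 7.05-fold lower in allo-WT relative to syngeneic skin (log2 difference -2.82 ± 0.40, adjusted p = 0.000333) and 3.65-fold higher in allo-MCd relative to allo-WT skin (1.87 ± 0.36, adjusted p = 0.000717). Both calls held under median scaling (-3.07 and 2.71) and in all 11 fits without a mouse, and the second was lost by the methods' test (adjusted p = 0.331). The fall in allo-MCd against syngeneic skin (-0.95 ± 0.36, adjusted p = 0.0494) was lost under median scaling (-0.36, adjusted p = 0.417) and in 7 of the 11 fits (adjusted p of up to 0.24), which left out syngeneic mouse 1 or 3, allo-WT mouse 1, or 1 of allo-MCd mice 1 to 4.

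Col4a1 and Col4a2 encode the chains of the main type IV collagen, the network of every basement membrane, and share the promoter region printed above. Col4a1 was at 6825, 2436 and 3624 in the syngeneic, 4429, 1388 and 2293 in the allo-WT and 1794, 2943, 3645, 1842 and 3460 in allo-MCd mice, with overlap between all groups and no call (adjusted p = 0.228, 0.816 and 0.261). Col4a2 was at 2696, 768 and 1283 in the syngeneic, 563, 422 and 833 in the allo-WT and 1012, 1268, 1447, 925 and 1590 in allo-MCd mice. All allo-MCd mice were above all allo-WT mice for Col4a2, and syngeneic mouse 2 lay within the allo-WT range. Col4a2 was 2.38-fold lower in allo-WT relative to syngeneic skin (log2 difference -1.25 ± 0.40, adjusted p = 0.026) and 2.10-fold higher in allo-MCd relative to allo-WT skin (1.07 ± 0.36, adjusted p = 0.0225). The first call was lost without syngeneic mouse 1 or 3, allo-WT mouse 1 or allo-WT mouse 2 (adjusted p of up to 0.1), and the second without allo-WT mouse 1 (0.0628) or 2 (0.101). Under median scaling Col4a1 was also called higher in allo-MCd relative to allo-WT skin (0.96, adjusted p = 0.0314).

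Within a mouse the ratio of Col4a1 to Col4a2 was 2.53, 3.17 and 2.82 in the syngeneic, 7.87, 3.29 and 2.75 in the allo-WT and 1.77, 2.32, 2.52, 1.99 and 2.18 in allo-MCd mice. All allo-MCd mice were below all other mice, although the highest, at 2.52, was close to the lowest syngeneic mouse, at 2.53. The value of 7.87 belongs to allo-WT mouse 1, the library with the weak positive control. This ratio was chosen after its values were seen and is given without a test, and it is free of the scaling because each mouse is divided by itself.

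Col17a1 encodes a transmembrane collagen of hemidesmosomes, which anchors basal keratinocytes and is made by epithelium and not by fibroblasts. It was at 4393, 8972 and 5531 in the syngeneic, 5808, 6543 and 4392 in the allo-WT and 6492, 5357, 6248, 5567 and 7634 in allo-MCd mice. The groups lay on top of each other, with log2 differences of -0.13 (interval -0.72 to 0.46), 0.17 (-0.35 to 0.70) and 0.05 (-0.48 to 0.57) in the order used above. It was the only tested gene of the 13 in which allo-WT mouse 2 was not the lowest of its group. Under median scaling it was called higher in allo-MCd relative to allo-WT skin (1.02, adjusted p = 0.00396). Cdh1, the epithelial cadherin and the only one of the 9 keratinocyte markers listed that was on the panel, was at 2216 to 4748 in the syngeneic, 3955 to 6371 in the allo-WT and 4652 to 5187 in allo-MCd mice. Under median scaling Cdh1 was also called higher in allo-MCd relative to allo-WT skin (0.80, adjusted p = 0.0167) and to syngeneic skin (1.16, adjusted p = 0.00808).

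Fn1, fibronectin, was at 9658, 5929 and 7394 in the syngeneic, 2819, 1286 and 11672 in the allo-WT and 2405, 2853, 3276, 2193 and 4800 in allo-MCd mice. Allo-WT mouse 3 was above and mice 1 and 2 were below every syngeneic mouse, whereas all 5 allo-MCd mice were below every syngeneic mouse. The log2 difference was -1.11 for allo-WT minus syngeneic (interval -2.43 to 0.21, adjusted p = 0.15) and -1.33 for allo-MCd minus syngeneic (-2.51 to -0.15, adjusted p = 0.0656), and neither was called. Without allo-WT mouse 3 the first was called (-1.98, adjusted p = 0.0019), and the second was called without allo-WT mouse 2 or 3 or allo-MCd mouse 5 (adjusted p of as little as 0.0055). The second was also called in the fit without the allo-WT group (adjusted p = 0.00296), which alters its error and not its value. Allo-MCd and allo-WT skin differed by -0.22 (interval -1.40 to 0.96), which turned to 0.62 under median scaling (adjusted p = 0.3). Under quantile normalization the allo-WT minus syngeneic difference was called (-1.35, adjusted p = 0.0497).

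Pdgfra, the receptor for platelet-derived growth factor on most dermal fibroblasts, was at 1903, 1486 and 1913 in the syngeneic, 1699, 1010 and 1381 in the allo-WT and 680, 734, 1020, 649 and 1249 in allo-MCd mice. All allo-MCd mice were below all syngeneic mice, and the allo-WT mice reached into both groups. The gene was 2.09-fold lower in allo-MCd relative to syngeneic skin (log2 difference -1.07 ± 0.25, adjusted p = 0.00575), a call kept in all 11 fits without a mouse but lost under median scaling (-0.48, adjusted p = 0.0609). Against allo-WT skin it was lower by 1.59-fold on the deposited scale (-0.67 ± 0.25, adjusted p = 0.0351), but under median scaling the difference turned to 0.17 (adjusted p = 0.397). The call was also lost when allo-WT mouse 1 or 3, or allo-MCd mouse 1, 2 or 4, was left out (adjusted p of up to 0.16). Under median scaling the allo-WT minus syngeneic difference, -0.40 on the deposited scale (adjusted p = 0.252), was called at -0.65 (adjusted p = 0.0163).

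Pdgfrb, the related receptor of pericytes and fibroblasts, was at 482, 253 and 321 in the syngeneic, 264, 145 and 174 in the allo-WT and 96.4, 120, 164, 71.8 and 289 in allo-MCd mice. Allo-MCd mouse 5 lay within the syngeneic range and the other 4 below it. It was 2.57-fold lower in allo-MCd relative to syngeneic skin (log2 difference -1.36 ± 0.41, adjusted p = 0.0208), which was lost under median scaling (-0.77, adjusted p = 0.103) and with syngeneic mouse 1 or 3 left out (adjusted p of up to 0.1). The difference of -0.85 for allo-WT minus syngeneic was not called (adjusted p = 0.146) and was called under median scaling (-1.10, adjusted p = 0.0281).

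Ddr2, the discoidin receptor for fibrillar collagen, was at 4384, 1913 and 2818 in the syngeneic, 1298, 1175 and 1666 in the allo-WT and 976, 956, 1410, 765 and 1762 in allo-MCd mice. All 8 allogeneic mice were below all 3 syngeneic mice. The gene fell 2.56-fold in allo-MCd skin (log2 difference -1.35 ± 0.31, adjusted p = 0.00503), and this was called under median scaling (-0.76, adjusted p = 0.0456) and in all 11 fits without a mouse, but not by the methods' test after adjustment (adjusted p = 0.0839). In allo-WT skin it fell 2.10-fold (-1.07 ± 0.34, adjusted p = 0.0252), called also under median scaling (-1.32, adjusted p = 0.00352) but not when syngeneic mouse 1 or 3, or allo-WT mouse 1 or 2, was left out (adjusted p of up to 0.11). Between the allogeneic groups the difference was -0.28 (interval -0.95 to 0.39), and 0.56 under median scaling (adjusted p = 0.0735).

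**Figure D2:**
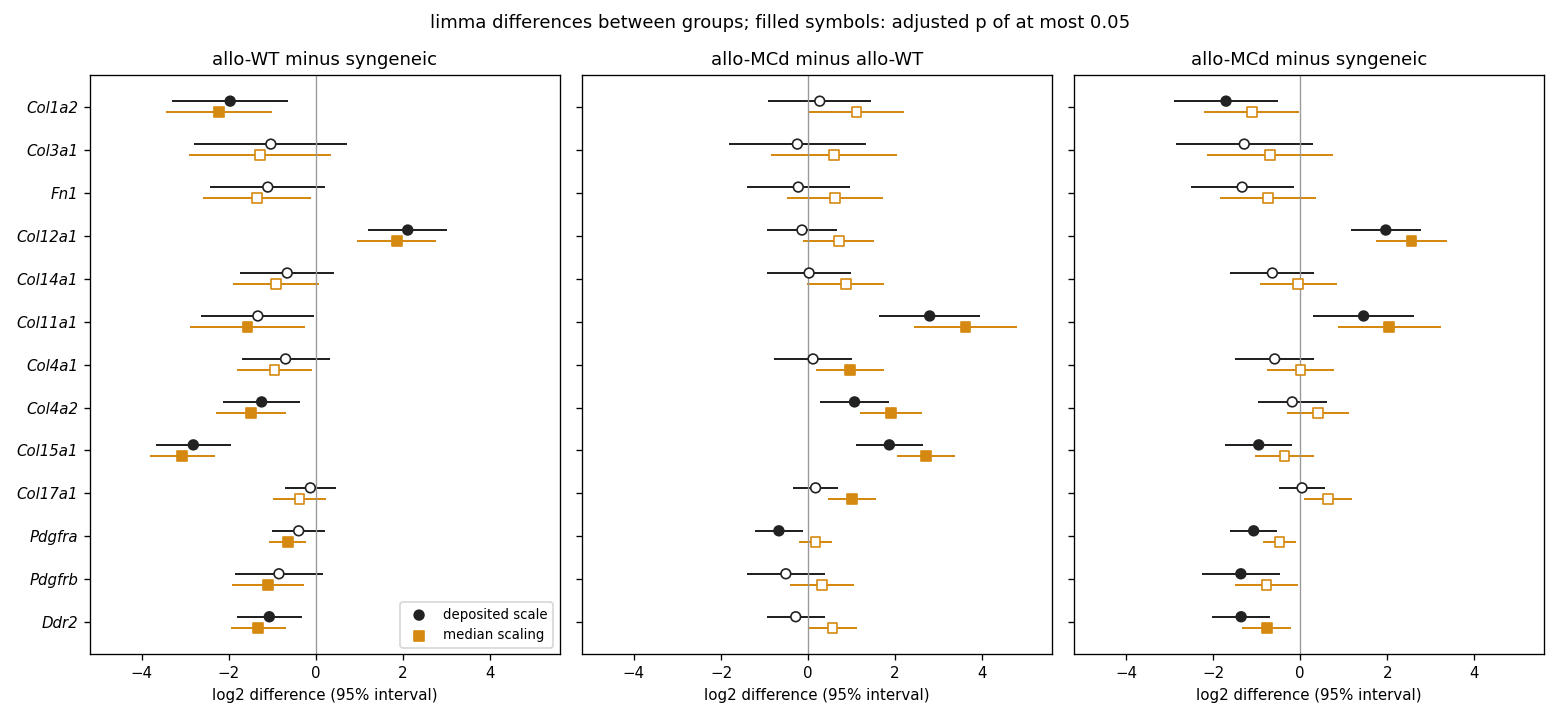
Log2 differences of the 13 tested genes with 95% intervals from limma in the 3 comparisons, on the deposited scale (circles) and under median scaling (squares), filled where the adjusted p was at most 0.05. Col12a1 lies right of 0 in both comparisons with syngeneic mice and Col15a1 and Col11a1 right of 0 in allo-MCd minus allo-WT mice on both scales, while Pdgfra in that comparison changes side.

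In bulk skin, fewer cells of a type and less RNA per cell cannot be told apart. The fibroblast markers on the panel were 4 of 11 listed, S100a4, Cd34, Cxcl12 and Prrx1, none of which is restricted to fibroblasts, and their summed level was 30534 to 41289 in the syngeneic, 16948 to 34987 in the allo-WT and 13517 to 26850 in allo-MCd mice. Of these, 2 fell in allo-WT against syngeneic skin (Cd34 and Prrx1) and none rose, where 14.9% of all genes were called lower and 28.3% higher. In allo-MCd against syngeneic skin, where Pdgfra, Pdgfrb and Ddr2 were called lower, 3 of the 4 markers fell, with log2 differences of -1.58 for S100a4, -1.44 for Prrx1 and -1.40 for Cd34 (adjusted p = 0.00503, 0.00351 and 0.00189), where 36.9% of all genes were called lower. These calls held under median scaling, where 13.5% of all genes were called lower. Cxcl12 stood at 0.21 (adjusted p = 0.537) and was called higher under median scaling (0.80, adjusted p = 0.0164). In allo-MCd against allo-WT skin S100a4 fell (-1.07, adjusted p = 0.0217), whereas under median scaling it was not called and Cd34, Cxcl12 and Prrx1 were called higher. In that comparison 50% of all genes were called lower on the deposited scale and 35.6% higher under median scaling. Myh4, a myosin of fast muscle fibers and the only skeletal muscle marker listed that was on the panel, was at 24768 to 55499 in the syngeneic, 2504 to 3864 in the allo-WT and 9063 to 65583 in allo-MCd mice. As for Col15a1, all allo-WT mice were below all other mice for Myh4, while for Col4a2 syngeneic mouse 2 also lay in the allo-WT range. The summed level of the 3 endothelial markers was 1112 to 1727, 522 to 613 and 455 to 1110, and that of Des and Angpt1, the 2 pericyte and smooth muscle markers, was 7958 to 13096, 2094 to 5848 and 2887 to 9650 in the same order of groups. The 5 adipocyte markers summed to 29696 to 52559, 24080 to 35361 and 21544 to 64530, and of these Lpl and Pparg fell in allo-WT against syngeneic skin (-1.33 and -1.15, adjusted p = 0.0456 and 0.0442), on both scales. There 14.9% of all genes were called lower on the deposited scale and 27.3% under median scaling. The 9 macrophage markers summed to 14625 to 17430, 25128 to 42461 and 4674 to 8635. The part of these cells in the collagen results was not tested.

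Variation among mice of a group was larger for these genes than for the panel. The median SD of log2 values was 0.53 in the syngeneic, 0.74 in the allo-WT and 0.44 in allo-MCd mice over the 13 genes, and 0.29, 0.38 and 0.39 over all 696 genes. Allo-WT mouse 2 was the lowest of the 3 allo-WT mice in 12 of the 13 genes and the lowest of all 11 mice in 8, whereas it was the lowest of its group for 40.4% and of all mice for 10.3% of all tested genes. Under median scaling these counts were 11 and 9, against 29.6% and 13.2% of all genes. Its total was 1431864 counts, the second highest of the 11 mice. Syngeneic mouse 1 was the highest of its group in 9 of the 13 genes and allo-MCd mouse 5 in 10, where all genes gave 41.2% and 54.9%.

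**Figure D3:**
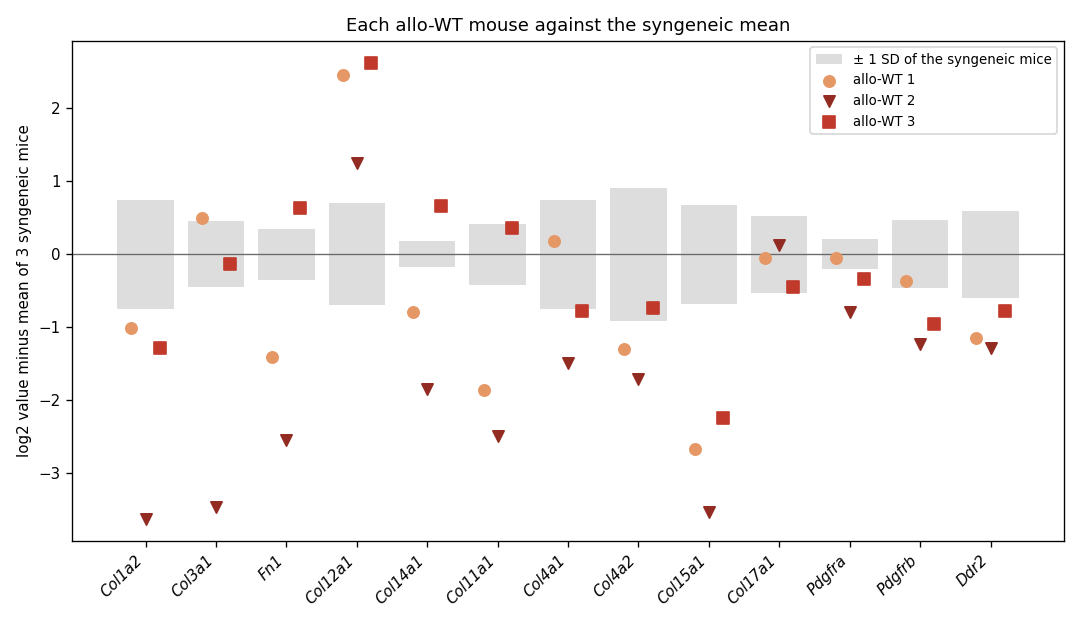
Log2 value of each allo-WT mouse minus the mean of the 3 syngeneic mice for the 13 tested genes, with gray boxes for 1 SD of the syngeneic mice on each side of 0. Mouse 2 lies lowest except for Col17a1, and for Col3a1 it sits at -3.47 while mice 1 and 3 lie at 0.49 and -0.14.

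Ratios between genes within a mouse are free of the scaling, although their level also carries the efficiency of each probe. The ratio of Col3a1 to Col1a2 was 1.46, 2.20 and 1.73 in the syngeneic, 5.01, 1.97 and 3.92 in the allo-WT and 2.23, 2.16, 2.52, 2.10 and 2.92 in allo-MCd mice. The log2 ratio was higher than in syngeneic mice by 0.93 in allo-WT mice (exact permutation p = 0.2, two-sided) and by 0.42 in allo-MCd mice (exact permutation p = 0.0536), with overlap in both. Ddr2 to Pdgfra stood at 2.30, 1.29 and 1.47 in the syngeneic, 0.764, 1.16 and 1.21 in the allo-WT and 1.44, 1.30, 1.38, 1.18 and 1.41 in allo-MCd mice. In this ratio the allo-MCd mice were higher than the allo-WT mice by 0.39 on the log2 scale, with overlap (exact permutation p = 0.0357, adjusted p = 0.3), the smallest unadjusted p of the ratios. All allo-WT mice were below all syngeneic mice in this ratio and in Pdgfrb to Pdgfra, and above them in Pdgfra to Col1a2. With 3 against 3 mice each has an exact permutation p of 0.1, the smallest that 20 arrangements allow. Of the 18 comparisons of 6 ratios, the lowest Benjamini-Hochberg adjusted p was 0.3.

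**Figure D4:**
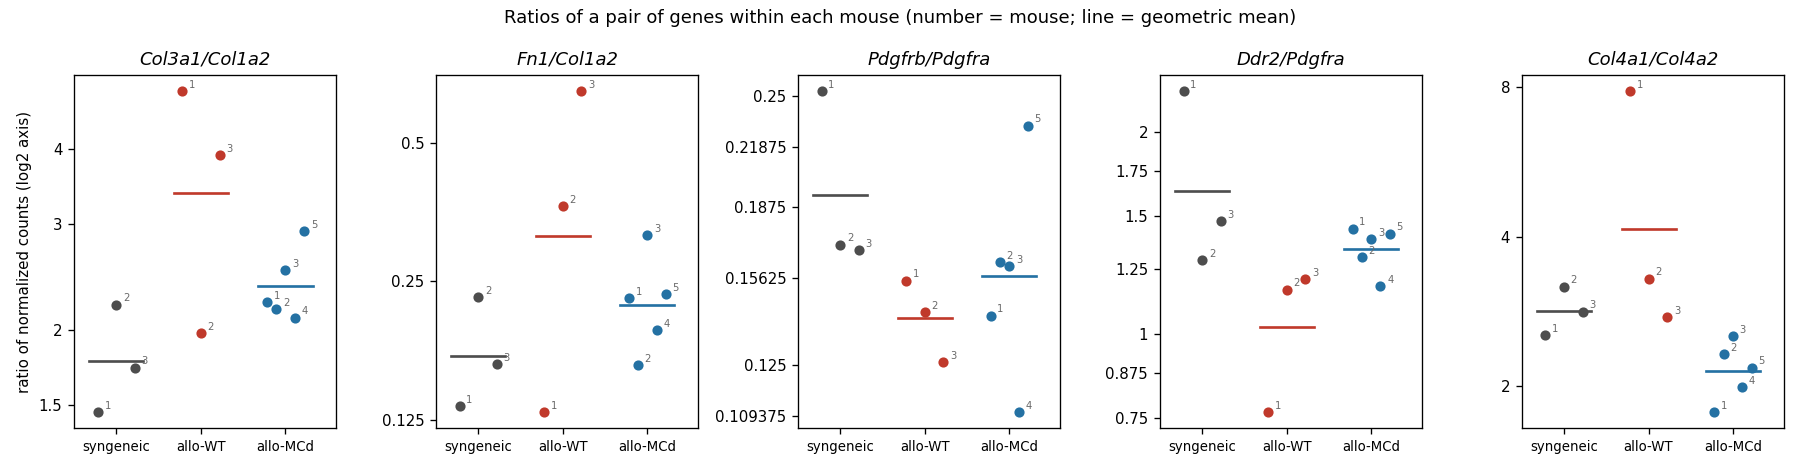
Ratios of normalized counts within each mouse (log2 axis, with its own range in each panel), with 1 point per mouse, the mouse number beside it and a line at the geometric mean. The allo-MCd mice lie between 1.77 and 2.52 for Col4a1 to Col4a2, below the other mice, and allo-WT mouse 1 lies at 7.87.

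Of 24 other matrix proteins listed, 4 were on the panel. Tnc, tenascin-C, a glycoprotein of healing and fibrotic matrix, was at 634 ± 303 (SD, n = 3) in the syngeneic, 18694 ± 17181 (n = 3) in the allo-WT and 2829 ± 952 (n = 5) in allo-MCd mice. It rose in allo-WT skin (log2 difference 4.59 ± 0.54 SE, adjusted p = 0.000123) and in allo-MCd skin (2.20 ± 0.48, adjusted p = 0.00411) against syngeneic skin, and was lower in allo-MCd relative to allo-WT skin (-2.38 ± 0.48, adjusted p = 0.00107). Ctgf, a secreted matrix regulator, fell in allo-WT against syngeneic skin (-1.12, adjusted p = 0.0211) and was higher in allo-MCd relative to allo-WT skin (1.17, adjusted p = 0.00596). Its relative Cyr61 fell in allo-WT skin as well (-1.50, adjusted p = 0.0115), and Hspg2, the perlecan of basement membranes, was not called in any comparison on the deposited scale. The calls of Tnc and Ctgf held under median scaling. On that scale Hspg2 was called in allo-WT minus syngeneic (-1.17, adjusted p = 0.0086) and in allo-MCd minus allo-WT mice (1.04, adjusted p = 0.00571), and Cyr61 was also called in the latter (1.69, adjusted p = 0.00114). Outside the lists, and chosen after their values were seen, the panel also held the laminin chains Lamb2 and Lamb3 and Adamts2, Adamts3 and Adamts14, which trim procollagen. Lamb2 was lower in allo-WT (-1.32, adjusted p = 0.00254) and in allo-MCd relative to syngeneic skin (-1.11, adjusted p = 0.00404), and both were called under median scaling (-1.58 and -0.52), where it was also higher in allo-MCd relative to allo-WT skin (1.06, adjusted p = 0.000323). Adamts2 was lower in allo-MCd relative to syngeneic skin on both scales (-1.59, adjusted p = 0.00195, and 0.0108 under median scaling) and relative to allo-WT skin on the deposited scale alone (-0.73, adjusted p = 0.0472). In allo-WT relative to syngeneic skin it was called lower under median scaling alone (-1.11, adjusted p = 0.00575). Lamb3, Adamts3 and Adamts14 were not called on the deposited scale. Under median scaling Adamts14 was called in allo-WT minus syngeneic (-1.28, adjusted p = 0.0163) and allo-MCd minus allo-WT mice (1.10, adjusted p = 0.0142). Adamts3, with low counts of 35.8 to 104, was called there in allo-MCd minus allo-WT (1.30, adjusted p = 0.0123) and allo-MCd minus syngeneic mice (1.28, adjusted p = 0.0333).

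Enzymes that cut matrix and their inhibitors gave 12 tested genes. Of these, 6 were up and 1 was down from syngeneic to allo-WT skin, 1 was up and 9 were down from allo-WT to allo-MCd skin, and none was up and 6 were down from syngeneic to allo-MCd skin. On the deposited scale the shares of all genes called higher and lower in these comparisons were 28.3% and 14.9%, 10.9% and 50%, and 4.6% and 36.9%. Under median scaling the counts were 6 and 1, 1 and 8, and 0 and 2, with 24.3% and 27.3%, 35.6% and 30.3%, and 13.9% and 13.5% of all genes. Mmp13, an interstitial collagenase, was at 39.6 ± 5.33 (SD, n = 3) in the syngeneic, 1687 ± 1308 (n = 3) in the allo-WT and 39.9 ± 19.6 (n = 5) in allo-MCd mice, with log2 differences of 4.85 (adjusted p = 0.000399) for allo-WT minus syngeneic and -4.98 (adjusted p = 4.29e-05) for allo-MCd minus allo-WT mice. Mmp12, the elastase of macrophages, moved in the same directions, by 3.15 (adjusted p = 0.000684) and -4.66 (adjusted p = 5.65e-06). So did Adam8, a membrane protease of leukocytes (2.16 and -3.42), and Ctss, a lysosomal cathepsin (2.13 and -3.57). Mmp8, the collagenase of neutrophils, was called in both comparisons too but was tested only through the allo-WT mice, where it stood at 25.6 to 555. In the syngeneic (9.74 to 16.5) and allo-MCd mice (2.28 to 10.4) no value was above background, so no size is given for its differences. In allo-MCd minus syngeneic mice the largest called differences were -1.51 for Mmp12, -1.44 for Ctss, -1.38 for Mmp9, a gelatinase, and -1.26 for Adam8, of which those of Ctss and Adam8 were called under median scaling. Timp3, a matrix-bound inhibitor of these enzymes, ran the other way, at 9225 ± 1562 (n = 3), 3065 ± 2436 (n = 3) and 7583 ± 538 (n = 5), and had log2 differences of -1.91 from syngeneic to allo-WT skin (adjusted p = 0.00556) and 1.64 from allo-WT to allo-MCd skin (adjusted p = 0.0038).

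Growth factors that act on fibroblasts numbered 17 of 25 listed, all tested. Of these, 4 rose and 5 fell in allo-WT compared with syngeneic skin, 2 were up and 7 down from allo-WT to allo-MCd skin, and none was up and 6 were down from syngeneic to allo-MCd skin. The same shares of all genes apply, 28.3% and 14.9%, 10.9% and 50%, and 4.6% and 36.9%. Under median scaling the counts were 4 and 7, 7 and 4, and 1 and 0 (24.3% and 27.3%, 35.6% and 30.3%, and 13.9% and 13.5% of all genes). Il6, an inflammatory cytokine, rose in allo-WT skin (log2 difference 2.67, adjusted p = 0.00262) and was lower in allo-MCd skin (-3.08 against allo-WT, adjusted p = 0.000208). Areg, an epidermal growth factor receptor ligand, rose in allo-WT skin (2.11, adjusted p = 0.00509). Hgf and Hbegf were lower in allo-MCd relative to allo-WT skin (-2.27 and -1.77). Il4 was called lower there as well, but was above background in 1 of 5 allo-MCd mice. Fgf18 and Egf had log2 differences of -2.27 and -2.17 from syngeneic to allo-WT skin (adjusted p = 0.00138 for both). The ligands of the Pdgf receptors also fell there, Pdgfa with a log2 difference of -0.80 (adjusted p = 0.00923) and Pdgfb with -0.73 (adjusted p = 0.032). Pdgfa was higher in allo-MCd relative to allo-WT skin (0.79, adjusted p = 0.00285). From syngeneic to allo-MCd skin the largest called differences were those of Fgf2 (-1.50), Fgf18 (-1.50), Egf (-1.01) and Fgf7 (-0.99), none of them called under median scaling.

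Receptors for collagen and fibronectin other than Ddr2 numbered 6 of 22 listed. Of these, 1 was up and none was down from syngeneic to allo-WT skin, 1 was up and 3 were down from allo-WT to allo-MCd skin, and 1 was up and 4 were down from syngeneic to allo-MCd skin. The shares of all genes called higher and lower in these comparisons were 28.3% and 14.9%, 10.9% and 50%, and 4.6% and 36.9%. Between the allogeneic groups, 3 of 6 lower is the share of the panel. Under median scaling the counts were 1 and 1, 2 and 2, and 1 and 1, against 24.3% and 27.3%, 35.6% and 30.3%, and 13.9% and 13.5% of all genes. Itga4, an integrin chain that binds fibronectin on leukocytes, rose in allo-WT skin (log2 difference 1.10, adjusted p = 0.00826) and was lower in allo-MCd skin (-2.53 against allo-WT, adjusted p = 5.65e-06). Itga5, the alpha chain of the main fibronectin receptor, was lower in allo-MCd relative to allo-WT skin (-2.01, adjusted p = 0.00111) and to syngeneic skin (-1.25, adjusted p = 0.0293), the latter not called under median scaling (adjusted p = 0.192). Itgb1, the common integrin beta 1 chain, was lower in allo-MCd relative to allo-WT skin (-0.97, adjusted p = 0.000932), and under median scaling not called (-0.13, adjusted p = 0.454). Cd44, a receptor for hyaluronan that also binds collagen, was higher by 1.07 in allo-MCd relative to allo-WT skin (adjusted p = 0.0101) and by 0.91 relative to syngeneic skin (adjusted p = 0.0332). Mrc2, a receptor that takes up collagen, was lower in allo-MCd relative to syngeneic skin (-1.02, adjusted p = 0.0346), and not called under median scaling (-0.43, adjusted p = 0.276).

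Across the 11 mice, after median scaling, the members most alike were Pdgfra and Pdgfrb (Pearson r = 0.93), Col15a1 and Col4a2 (0.93), Col14a1 and Fn1 (0.92) and Col1a2 and Col3a1 (0.89), and the least alike were Col12a1 and Pdgfrb (-0.67). The gene most like Col1a2 and Col3a1 was Loxl2, an enzyme that cross-links collagen, at 0.95 and 0.96, that most like Ddr2 was Prrx1, a mesenchymal transcription factor, at 0.99, and that most like Fn1 was Igf1, a growth factor, at 0.95. Among genes outside the set, Sema6d was closest to Pdgfra at 0.92 and Rhoj to Pdgfrb at 0.90. These are descriptions over mice of 3 groups that share libraries and a scaling factor.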

How the data were processed

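Skin RNA of 11 mice was counted on a NanoString panel. The deposited signal is linear, and the authors obtained it by normalizing molecule counts in nSolver. The software version, reference genes and background treatment are not given in the sources used here. Gene values of each mouse were whole multiples, within 0.011, of 1 factor for 99.9% to 100% of genes, and the counts recovered from it, 831632 to 1460260 per mouse, give the depth. The file held 768 rows, of which 14 were raw control probes. A set of 20 housekeeping genes, whose geometric mean lay between 1089 and 1104 in the 11 mice, was set aside. A gene was above background when it exceeded the negative control mean by over 2 SD.

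The remaining genes that reached 20 in 3 or more mice, 696 in all, were compared in limma 3.58.1 (R 4.3.3) on log2(value + 1), in a single fit of the 3 groups with an intensity trend, no covariate, Benjamini-Hochberg adjustment over the 696 genes and a threshold of 0.05. Fold changes are on this scale and understate changes of low genes. Single ratios were compared by two-sided exact permutation tests, in which 3 against 3 mice cannot go below 0.1 and 5 against 3 mice not below 0.0179. On simulated data with 200 of 696 genes changed, 55.4% to 66.6% of log2 changes of 1 and 93% to 95.4% of changes of 2 were recovered, and 3.26% to 5.02% of calls were false. Tables were handled in Python 3.11.15 (pandas 2.3.3, numpy 2.4.6, scipy 1.17.1) and plots drawn in matplotlib 3.10.9.

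Mice are separate animals. No 2 mice of a group agreed within sampling noise (chi-square per degree of freedom from 35.9 to 408). The genes described and the lists of related genes and cell type markers were chosen with earlier results of these data known. All rows of the set are named, with the up to 4 called genes of largest difference in each pathway list and comparison, and Pdgfa, Pdgfb, Timp3 and Hspg2, picked for their role (laminins and Adamts enzymes were named after their values were seen), and the genes most alike across mice. Alternatives were other pseudocounts, filters on low values, scalings and variance models, a fit without the third group, a block for the mouse number, omission of each mouse, the methods' test (a 3-group test with Tukey's comparison on the values) and, chosen after seeing the data, voom on the recovered counts. In a fit that left out a mouse of the third group, a difference keeps its value and only its error changes. Histology, protein and qPCR measurements are not analysed here.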

Additional observations from a re-analysis of the deposited data

How the results depend on the processing

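Of the values on single genes, 840 kept direction and call, 71 lost a call, 23 gained one and 41 changed sign, the last mostly in differences that no fit called. The exceptions, and the settings that moved the number of called genes by over 1.5 times, are listed here, and the cause was not tested where none is named. Called genes in allo-WT minus syngeneic mice numbered 8 under median scaling, 10 under quantile normalization, 3 when only the groups compared were in the fit (38.6% of all genes) and 1 by the methods' test after Benjamini-Hochberg (Col15a1, 27.7% of all genes). In allo-MCd minus allo-WT mice the methods' test called Col11a1 alone, 1 gene before (50.9% of all genes) and 1 after that adjustment (43.4%). In allo-MCd minus syngeneic mice the number was 3 under median scaling, 4 under quantile normalization and 1 by the methods' test after adjustment (Pdgfra, 11.4% of all genes). With 1 mouse left out at a time the numbers ran from 2 to 8, from 2 to 4 and from 3 to 9 in the same order, where 32.2% to 47%, 50.4% to 61.9% and 27.3% to 49.4% of all genes were called. Under median scaling the log2 difference of allo-MCd minus allo-WT became 0.70 for Col12a1, 0.60 for Col3a1, 0.56 for Ddr2, 0.62 for Fn1, 0.17 for Pdgfra and 0.33 for Pdgfrb, and that of allo-MCd minus syngeneic became 0.0081 for Col4a1 and 0.41 for Col4a2. Under quantile normalization the log2 difference of allo-MCd minus allo-WT became 0.61 for Col12a1, 1.12 for Col3a1, 0.42 for Ddr2, 0.62 for Fn1, 0.0067 for Pdgfra and 0.50 for Pdgfrb, and that of allo-MCd minus syngeneic became 0.32 for Col4a2. By the methods' test the log2 difference of allo-MCd minus allo-WT became -0.28 for Col14a1 and -0.042 for Col1a2, and that of allo-MCd minus syngeneic became -0.0089 for Col17a1, with the same values after adjustment. In allo-WT minus syngeneic mice, leaving out 1 mouse moved log2 differences across 0, from -0.36 to 0.16 for Col17a1 and from -1.80 to 0.18 for Col3a1. In allo-MCd minus allo-WT mice, leaving out 1 mouse moved log2 differences across 0, from -0.57 to 0.11 for Col12a1, from -0.57 to 0.69 for Col14a1, from -1.46 to 0.52 for Col3a1, from -0.56 to 0.75 for Col1a2, from -0.28 to 0.55 for Col4a1 and from -0.94 to 0.65 for Fn1. In allo-MCd minus syngeneic mice, leaving out 1 mouse moved log2 differences across 0, from -0.18 to 0.33 for Col17a1 and from -0.61 to 0.30 for Col4a2. Leaving out 1 mouse moved log2 ratios from -0.90 to -0.23 for Col3a1 to Col1a2 in allo-MCd minus allo-WT mice, from 0.28 to 0.58 for Col3a1 to Col1a2 in allo-MCd minus syngeneic mice, from -1.13 to 0.033 for Fn1 to Col1a2 in allo-MCd minus allo-WT mice, from -0.57 to 0.85 for Fn1 to Col3a1 in allo-WT minus syngeneic mice, from -0.90 to 0.52 for Fn1 to Col3a1 in allo-MCd minus allo-WT mice, from -0.15 to 0.029 for Fn1 to Col3a1 in allo-MCd minus syngeneic mice, from 0.18 to 0.51 for Ddr2 to Pdgfra in allo-MCd minus allo-WT mice, from -0.46 to -0.041 for Ddr2 to Pdgfra in allo-MCd minus syngeneic mice, from -1.26 to -0.31 for Pdgfra to Col1a2 in allo-MCd minus allo-WT mice and from 0.33 to 0.90 for Pdgfra to Col1a2 in allo-MCd minus syngeneic mice. Mice of different groups that share a number had r between -0.11 and 0.21 in 9 pairs, 3 over 0.1. For syngeneic and allo-WT mice the same-numbered pairs had r of 0.15, 0.21 and 0.059, where the other pairs had -0.19 to 0.024. Same-numbered pairs with allo-MCd mice had r of -0.11 to 0.11, within the range of the other pairs. Deviations from the means of so few mice cannot tell whether the numbers pair the mice. With a replicate block for the number 5, 4 and 5 genes were called, and the difference of Col14a1 in allo-MCd minus allo-WT mice became -0.084 and that of Col17a1 in allo-MCd minus syngeneic mice -0.0015. A planned count-model test was not run, because the deposited columns hold scaled gene values beside raw control rows. With voom on the recovered counts 5, 4 and 7 genes were called.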

Other observations

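No group of 5 allo-MCd values held an outlying mouse among the 14 sets tested. In allo-MCd mice the summed level of the 7 mast cell markers was 139 to 656, against 3851 to 9348 in syngeneic and 2397 to 14803 in allo-WT mice.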
